A study of Mus musculus with 4 samples.

Results

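The Slc25 family of mitochondrial carriers was followed through the messenger RNA of mouse embryonic stem cells that lack DGCR8 or Dicer. Members were chosen by name, as the rows of the mRNA count table whose symbol starts with Slc25a, and 40 of the 13815 rows qualified. RefSeq lists 47 such genes in GRCm38.p6 without pseudogenes; Slc25a2, Slc25a18, Slc25a21, Slc25a34, Slc25a41, Slc25a48 and Slc25a54 were not analysed here. The 3 groups were wild-type cells (WT), cells without Dgcr8 and cells without Dicer, each 1 polyadenylated RNA library, all labelled with the strain V6.5 and grown in serum medium with leukaemia inhibitory factor. DGCR8 binds RNA for Drosha, which frees microRNA hairpins in the nucleus, and Dicer cuts those hairpins into mature microRNAs, so the knockouts target successive steps of the canonical microRNA pathway. The labels do not describe the knockout alleles, nor how many clones or cultures stand behind a library. With 1 library per group no difference has a replicate check, and neither tests nor p-values are given.

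Slc25 proteins sit mostly in the inner mitochondrial membrane, which is closed to charged metabolites, and each exchanges or imports a narrow set of solutes: adenine nucleotides, phosphate, citrate, aspartate, carnitine esters, cofactors, iron or glutathione. The fold is built from repeats of a pair of membrane helices, and the carrier moves its solute by opening to one side of the membrane at a time. Paralogues that carry the same solute are common in the family and are often used in different tissues; Slc25a4, for example, is the adenine nucleotide carrier typical of heart and skeletal muscle, while Slc25a5 is the form of proliferating cells.

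The libraries held 9931625 to 12309100 counts, and levels are given as CPM, counts scaled to the same table total in every library; 1 CPM is 9.93 counts in WT, 11.12 without Dgcr8 and 12.31 without Dicer. Where 3 values follow each other below, they stand for WT, the Dgcr8 knockout and the Dicer knockout in that order, and paired ratios or folds are the Dgcr8 and then the Dicer knockout against WT. The targeted genes followed their labels: Dgcr8 was at 52.7 CPM in WT, 20.9 CPM without Dgcr8 and 84.7 CPM without Dicer, and Dicer1 was at 80.0, 127.6 and 20.1 CPM in the same order. All 8 stem cell markers listed, among them Pou5f1, Sox2 and Nanog, had rows, with a summed level of 4531, 4809 and 3898 CPM; of these, Fgf4 was called higher in both knockouts (177.9, 415.6 and 367.0 CPM) and Zfp42 lower in the Dicer knockout (487.7, 386.0 and 95.1 CPM), 5.13-fold below WT, and their part in the results below was not tested. Of 8 listed markers of feeder fibroblasts and stroma, 3 had rows (Col1a1, Thy1 and Pdgfra), and their summed level was 30.7 CPM in WT, 2.97 CPM without Dgcr8 and 1.95 CPM without Dicer. In bulk RNA, fewer cells of a type and less RNA per cell cannot be told apart. Low counts were mostly even (69.6% to 74.8% of counts from 2 to 9), a pattern that counting both mates of a read pair would give. The 95% intervals below cover counting error only, and are too narrow even for that if mates were counted separately.

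The summed level of the family differed little between the libraries, while single members differed by up to several fold. Summed over the 40 members, the level was 3255 CPM in WT, 3079 CPM without Dgcr8 and 3073 CPM without Dicer; without Slc25a4 it was 2758, 2892 and 2965 CPM. Slc25a3, Slc25a4, Slc25a5 and Slc25a39 gave 71.7% of the family's counts in WT, 63.6% without Dgcr8 and 63.8% without Dicer, with no correction for transcript length, so this says where the reads are and not which protein is made most. At the other end, 5 members (Slc25a29, Slc25a31, Slc25a43, Slc25a47 and Slc25a53) were under 1 CPM in at least 1 library.

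**Figure D1:**
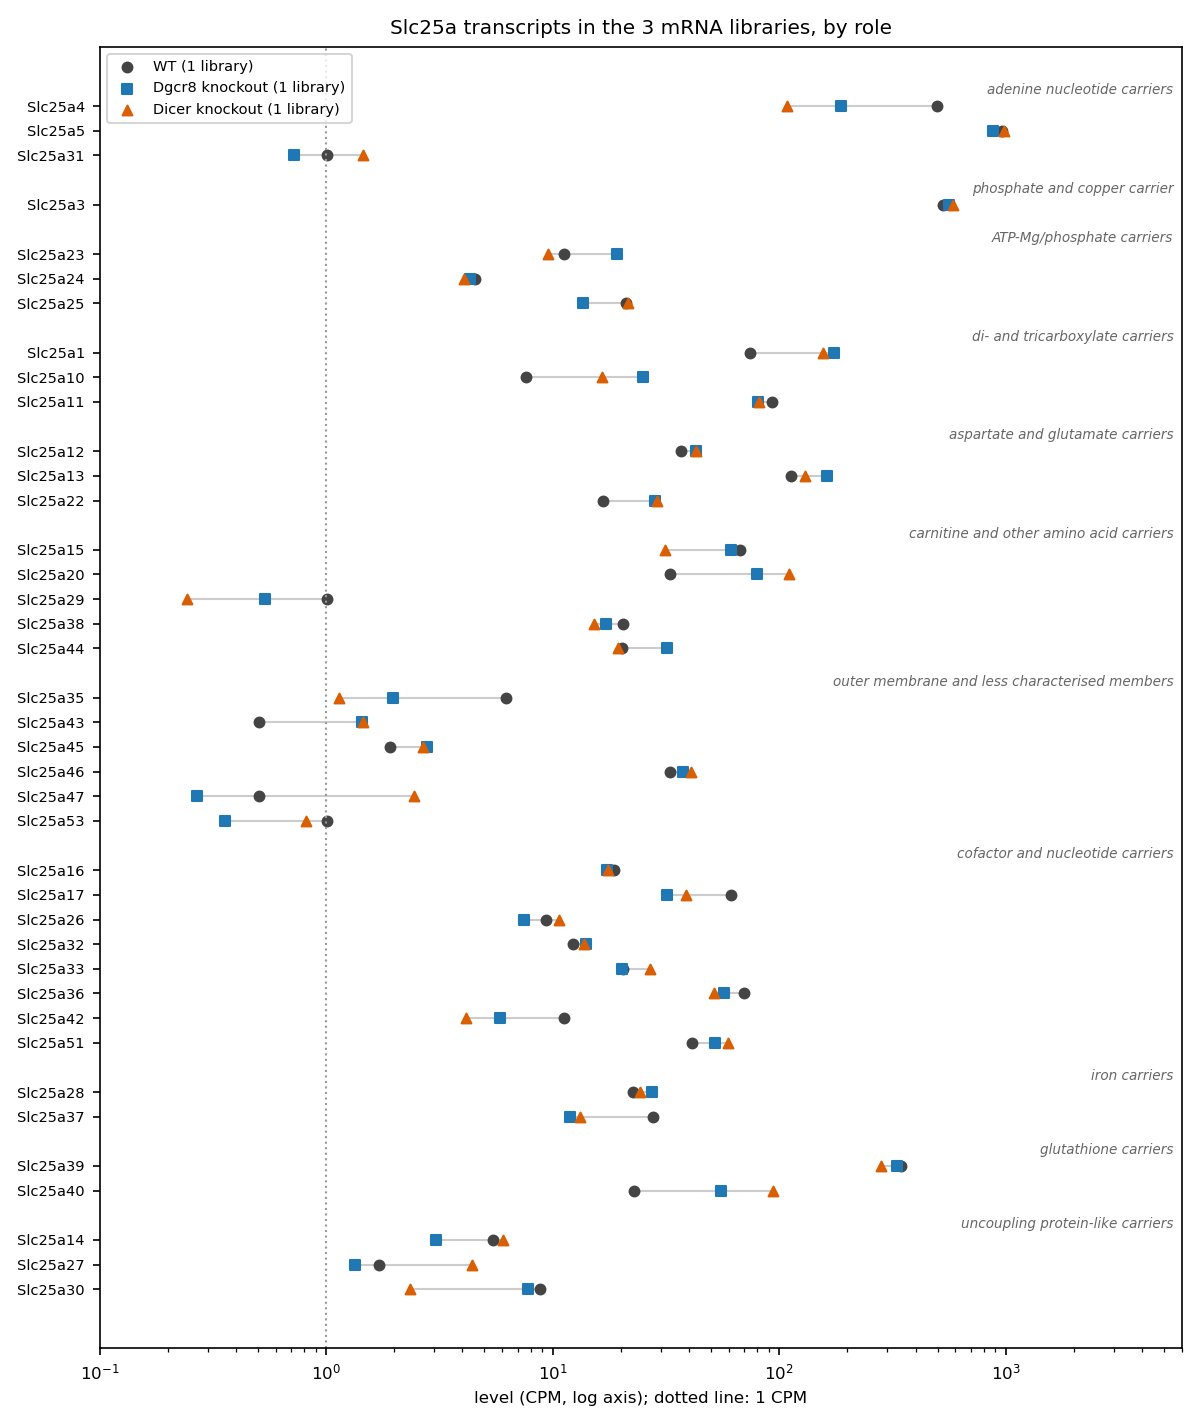
Level of 39 Slc25a members (CPM, logarithmic axis) in the WT (circle), Dgcr8 knockout (square) and Dicer knockout (triangle) libraries, 1 library each, with members grouped by role; a grey line joins the 3 values of a gene and the dotted line marks 1 CPM. Slc25a4 runs from 496.5 CPM in WT down to 108.4 CPM in the Dicer knockout, Slc25a40 runs the other way from 22.8 to 94.4 CPM, and Slc25a3 and Slc25a5 hardly spread.

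Calls of higher or lower need a change of at least 2-fold on the scale of log2(CPM + 1), in a gene that reached 1 CPM in either library of the pair. In the Dgcr8 knockout against WT, 4 of 39 members entered were higher (10.3%, against 14.3% of 13223 genes) and 3 were lower (7.69%, against 8.02%), which is 17.9% in either direction against 22.3%. In the Dicer knockout against WT, 5 of 40 were higher (12.5%, against 16% of 13403 genes) and 6 were lower (15%, against 9.7%), which is 27.5% in either direction against 25.7%; TMM or median-ratio scaling, other estimates of library size, left 3 higher and 6 lower. Both comparisons use the same WT library, so they are not independent of each other. Between the 2 knockouts, 1 of 38 members was higher in the Dgcr8 knockout (2.63%, against 4.15% of 12986 genes) and 2 were lower (5.26%, against 5.05%), 7.89% in either direction against 9.2%. These shares lie near those of all genes, so the counts say nothing particular to the family.

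The family's median lay below that of all genes in the Dgcr8 knockout and close to it in the Dicer knockout. In the Dgcr8 knockout 23 of 39 members were below WT, against 5795 of 13223 genes. In the Dicer knockout 17 of 40 were, against 6048 of 13403. The median log2 ratio of the members was -0.10 in the Dgcr8 knockout (interquartile range -0.30 to 0.35), against 0.11 for all genes entered, and 0.11 in the Dicer knockout (-0.32 to 0.35), against 0.10. The extremes were -1.40 and 1.59 in the Dgcr8 knockout and -2.19 and 2.01 in the Dicer knockout. Between the knockouts the median was -0.01. The 210 other solute carrier rows gave medians of 0.07 without Dgcr8 and -0.02 without Dicer, with 25 higher and 22 lower of 204, and 27 higher and 33 lower of 207.

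**Figure D2:**
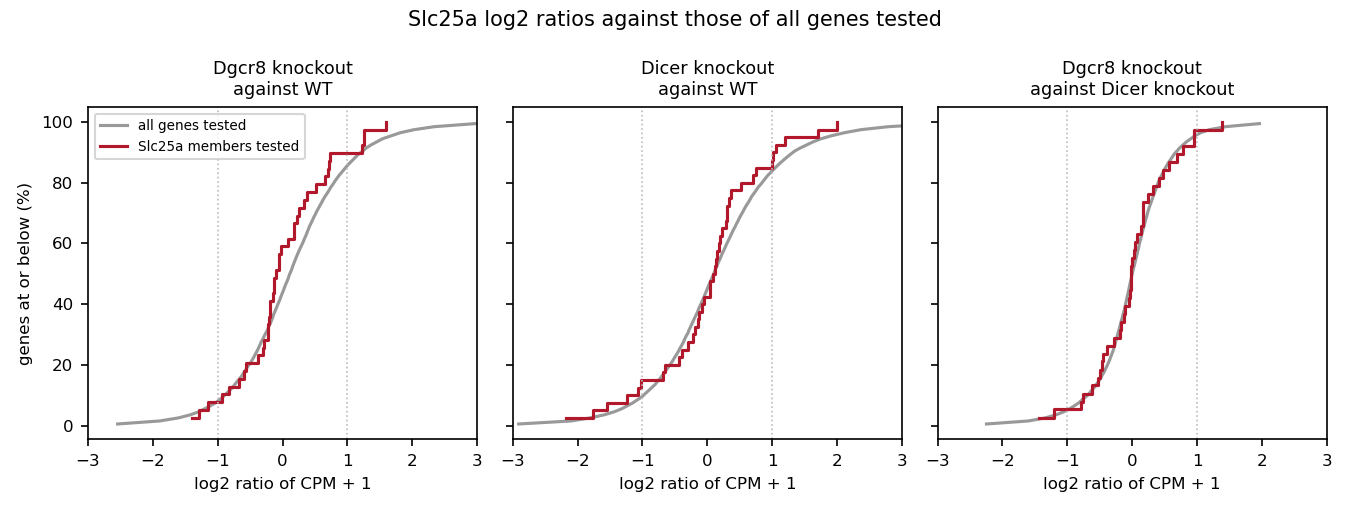
Share of genes (%) at or below each log2 ratio of CPM + 1, for the Slc25a members entered (red steps) and all genes entered (grey), in the 3 pairs of libraries; dotted lines mark 2-fold. The medians are -0.10 against 0.11 in the Dgcr8 knockout, where the red curve stands above the grey one at its middle. They are 0.11 against 0.10 in the Dicer knockout.

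Of the 40 members, 12 were called in at least 1 pair and 28 in none. Slc25a1, Slc25a10, Slc25a20 and Slc25a40 were higher in both knockouts, and Slc25a4, Slc25a35 and Slc25a37 were lower in both. Slc25a47 was higher, and Slc25a15, Slc25a30 and Slc25a42 were lower, in the Dicer knockout against WT. Slc25a27, Slc25a30 and Slc25a47 were called between the knockouts. All 21 calls had a counting interval without 1, also with every count halved. Calls and intervals rest on the same counts, so this is no separate check of the calls. Of the 40 intervals, 17 included a ratio of 1 for Dgcr8 against WT and 13 for Dicer against WT (21 and 18 with counts halved).

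**Figure D3:**
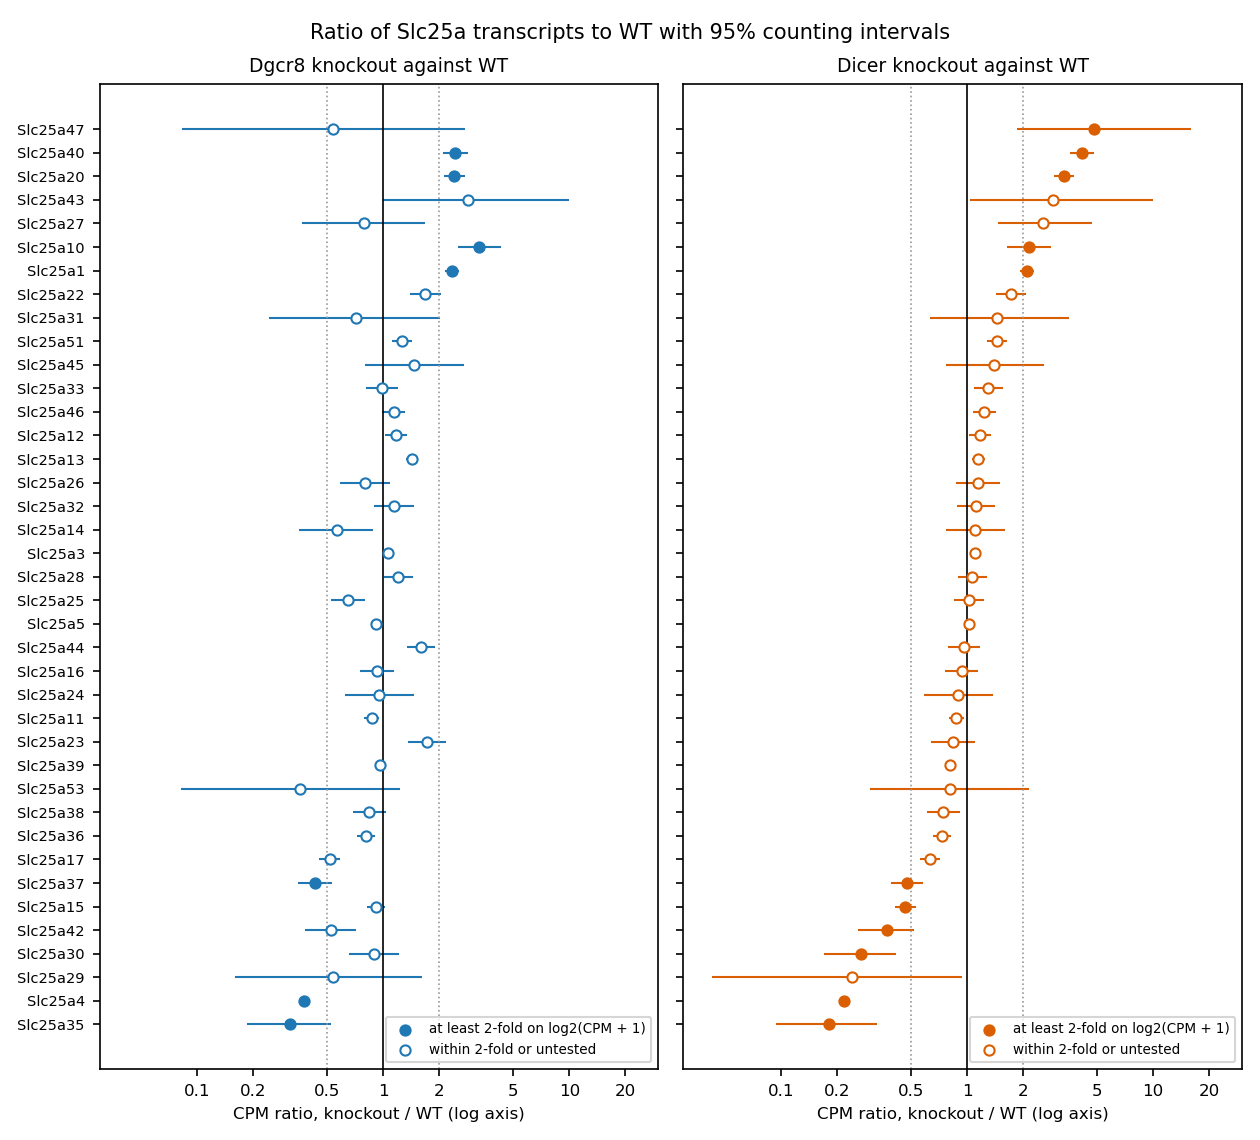
CPM ratio of 39 members to WT (points, logarithmic axis) with its 95% counting interval (bars), in the Dgcr8 knockout (left) and the Dicer knockout (right), 1 library per group; filled points are at least 2-fold on log2(CPM + 1), and dotted lines mark ratios of 0.5 and 2. Slc25a40 stands at 2.44 and 4.15 times WT and Slc25a4 at 0.378 and 0.218, while genes of few counts, such as Slc25a43, have bars that span much of the axis.

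The promoters of the 4 members higher in both knockouts, and of Slc25a4, the member at the lowest log2 ratio in both, are shown so that the genes that moved can be compared by sequence. They are the 200 bases before the annotated start, 5′ to 3′ on the gene's own strand, from RefSeq on GRCm38.p6, a later build than the mm9 of the counts; Slc25a35 and Slc25a37 are named only. Capitals mark exact matches, on either strand, to the motifs searched, of which these windows held the GC box GGGCGG bound by Sp factors, CCAAT bound by NF-Y and the ETS motif CCGGAAGT.
Slc25a1, chr16:17928220-17928419, minus strand: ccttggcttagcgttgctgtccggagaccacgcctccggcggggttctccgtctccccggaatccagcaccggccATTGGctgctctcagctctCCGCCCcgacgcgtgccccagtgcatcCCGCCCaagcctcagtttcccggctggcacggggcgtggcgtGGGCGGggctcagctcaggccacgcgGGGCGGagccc
Slc25a10, chr11:120491637-120491836, plus strand: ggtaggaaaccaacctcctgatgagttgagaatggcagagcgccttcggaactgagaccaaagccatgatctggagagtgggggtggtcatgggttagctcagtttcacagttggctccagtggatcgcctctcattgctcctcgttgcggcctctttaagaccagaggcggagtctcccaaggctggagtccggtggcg
Slc25a20, chr9:108661936-108662135, plus strand: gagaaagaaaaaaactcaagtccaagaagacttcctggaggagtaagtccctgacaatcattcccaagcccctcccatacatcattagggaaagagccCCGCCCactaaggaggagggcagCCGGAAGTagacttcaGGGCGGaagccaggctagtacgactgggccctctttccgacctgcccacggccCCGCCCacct
Slc25a40, chr5:8422638-8422837, plus strand: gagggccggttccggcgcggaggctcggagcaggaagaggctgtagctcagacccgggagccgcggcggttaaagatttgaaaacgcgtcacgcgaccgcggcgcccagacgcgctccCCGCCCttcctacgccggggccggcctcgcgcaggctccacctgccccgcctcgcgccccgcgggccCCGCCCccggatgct
Slc25a4, chr8:46211063-46211262, minus strand: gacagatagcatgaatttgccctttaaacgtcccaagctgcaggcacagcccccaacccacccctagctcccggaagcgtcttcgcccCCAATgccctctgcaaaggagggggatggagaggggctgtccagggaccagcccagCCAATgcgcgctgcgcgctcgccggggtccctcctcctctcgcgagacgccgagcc

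No motif searched was common to all 5 stretches. Slc25a1 held 4 GC boxes, Slc25a20 held 3 and Slc25a40 held 2, while Slc25a10 and Slc25a4 held none in the bases shown. Slc25a1 held 1 CCAAT motif and Slc25a4 held 2. Over the full promoter entries, which run from 250 bases before the start to 50 after it, 40 promoters of 31 members were matched. The GC box was in 36 of these (90%), against 35.7% of all 32851 promoters and 61.9% of those of genes in the table. Slc25a10 and Slc25a4 were among them, so the full entries of all 5 genes shown held a GC box. CCAAT was in 20 of 40 (50%, against 37.4% of all promoters and 38.1% of those of table genes) and the E-box CACGTG in 8 (20%, against 7.15% and 9.94%). CCGGAAGT was in 1 (2.5%, against 3.89% and 7.48%), as was the NRF1 motif GCGCATGC (2.5%, against 2.71% and 4.99%), and TATAAA was in none (0%, against 13.6% and 7.35%). The member promoters had a median GC content of 59.8%, against 52.7% for all. Overlapping promoters of Slc25a14 share an E-box and those of Slc25a23 share a GC box, so some sites were counted more than once. None of the motifs searched contains another. A match describes the letters only.

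Among the adenine nucleotide carriers, which exchange mitochondrial ATP for cytosolic ADP, Slc25a4 was far lower in both knockouts and Slc25a5 was not. Slc25a4 had 4931 counts in WT, 2086 without Dgcr8 and 1334 without Dicer, or 496.5, 187.5 and 108.4 CPM. It was 2.65-fold lower in the Dgcr8 knockout (95% interval 2.52 to 2.79) and 4.58-fold lower in the Dicer knockout (4.31 to 4.87), and the Dgcr8 knockout stood at 1.73 times the Dicer knockout (1.62 to 1.86). Slc25a5 was at 962.1, 876.6 and 987.1 CPM, ratios to WT of 0.911 (0.886 to 0.937) and 1.03 (0.999 to 1.05). Slc25a31, the germ cell form, had 10, 8 and 18 counts, too few to place either ratio on one side of 1. The summed level of the 3 carriers was 1460 CPM in WT, 1065 CPM without Dgcr8 and 1097 CPM without Dicer.

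Within a library, Slc25a4 had 0.516 counts per count of Slc25a5 in WT, 0.214 without Dgcr8 and 0.110 without Dicer. This ratio does not depend on library scaling, and it was 2.41-fold lower (2.28 to 2.56) and 4.70-fold lower (4.40 to 5.03). RefSeq lists a processed pseudogene of Slc25a5, so reads of near-identical copies may sit in its count. Col1a1, Thy1 and Pdgfra were lower in both knockouts as well, at 97, 6 and 5 counts, 175, 23 and 16 counts, and 33, 4 and 3 counts; their part in the Slc25a4 difference was not tested.

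**Figure D4:**
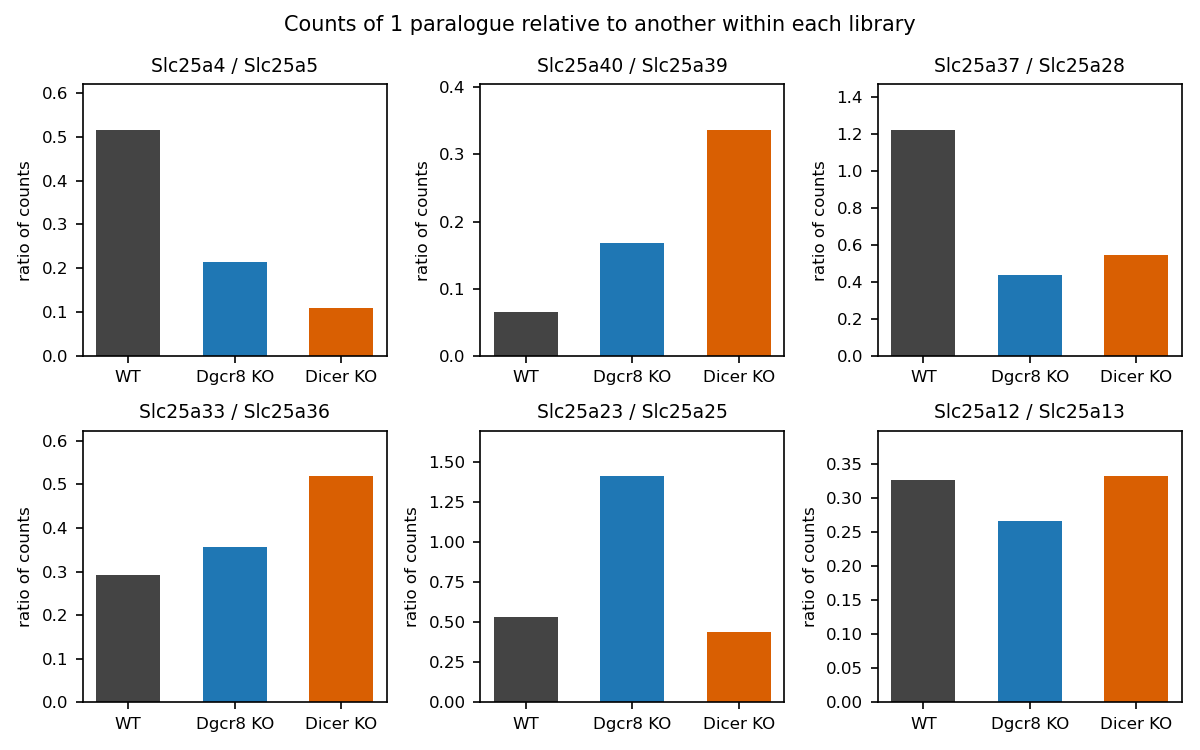
Counts of 1 paralogue divided by those of another in the WT, Dgcr8 knockout (KO) and Dicer knockout libraries (1 library each, bars from 0), for 6 pairs of members. Slc25a4 over Slc25a5 steps down from 0.516 to 0.110, Slc25a40 over Slc25a39 steps up from 0.0660 to 0.337, and Slc25a12 over Slc25a13 lies between 0.266 and 0.332.

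Slc25a3, which imports the phosphate and the copper used by ATP synthase and cytochrome oxidase, was at 531.0 CPM in WT, 563.9 CPM without Dgcr8 and 584.3 CPM without Dicer. The ratios to WT were 1.06 (1.02 to 1.10) and 1.10 (1.06 to 1.14), and the first falls below 1 under TMM and median-ratio scaling. By library totals, Slc25a3 and Slc25a5 thus differed from WT by at most 1.10-fold in the libraries where Slc25a4 was lower. TMM and median-ratio scaling put factors of 0.923 and 0.908 on ratios of the Dgcr8 knockout to WT. That takes Slc25a5 there farther below WT than this bound.

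The ATP-Mg/phosphate carriers, calcium-regulated exchangers that set the size of the matrix adenine nucleotide pool, had no call among the 3 members. Slc25a23 had 112, 215 and 117 counts, a ratio of 1.71 in the Dgcr8 knockout (1.36 to 2.17) and 0.843 in the Dicer knockout. Slc25a25 had 209, 152 and 266 counts and moved the other way in the Dgcr8 knockout, 1.54-fold lower (1.24 to 1.91). The counts of Slc25a23 per count of Slc25a25 were 0.536 in WT, 1.41 without Dgcr8 and 0.440 without Dicer, so that the Dgcr8 knockout stood at 2.64 times WT (1.91 to 3.64) and 3.22 times the Dicer knockout (2.35 to 4.39). Slc25a24 had 45, 48 and 50 counts. Slc25a25 overlaps Naif1, which had 12, 44 and 42 counts, and if strand was not used in counting the reads of the overlap cannot be assigned.

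Of the di- and tricarboxylate carriers, 2 of 3 were higher in both knockouts by library totals, beside 14.3% and 16% of all genes. A group of 3 is too small to read as a result about these carriers. Slc25a1, which exports citrate for the making of cytosolic acetyl-CoA, had 739 counts in WT, 1945 without Dgcr8 and 1923 without Dicer, or 74.4, 174.9 and 156.2 CPM. It was 2.35 times WT in the Dgcr8 knockout (2.16 to 2.56) and 2.10 times WT in the Dicer knockout (1.93 to 2.29). Slc25a10, which exchanges malate and succinate for phosphate, was at 7.65, 25.1 and 16.5 CPM (76, 279 and 203 counts). It was 3.28 times WT (2.54 to 4.28) and 2.16 times WT (1.65 to 2.84). Slc25a11, the oxoglutarate-malate exchanger, was nearly level at 92.9, 80.9 and 81.7 CPM; it overlaps Rnf167, which had 551, 453 and 594 counts. Under TMM scaling the Dicer ratio of Slc25a1 was 1.95 and that of Slc25a10 was 2.003, and neither reached 2-fold on log2(CPM + 1).

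Slc25a1 and Dgcr8 both lie on chromosome 16, with 8 protein-coding genes between them in GRCm38.p6. Any part of this position in the Slc25a1 difference was not tested. The enzymes that make and use the exported citrate were examined beside Slc25a1. Citrate synthase (Cs) was at 245.7, 507.7 and 486.8 CPM, called higher in the Dgcr8 knockout only, with ratios of 2.07 and 1.98. Acly, which splits exported citrate, was at 319.0, 588.9 and 541.8 CPM and was not called. Among the 7 enzymes listed for citrate and the malate-aspartate shuttle, Cs was the 1 gene higher in the Dgcr8 knockout, none was lower there, and in the Dicer knockout none was higher and 1, Got2, was lower. With 14.3% of all genes higher in the Dgcr8 knockout and 9.7% lower in the Dicer knockout, 1 of 7 is no more than the background in the first case and close to it in the second.

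The aspartate and glutamate carriers had no call, though all 3 had a ratio above 1 in both knockouts. Slc25a12 and Slc25a13 send aspartate out of the matrix for glutamate, the step that drives the malate-aspartate shuttle one way. Slc25a13 was at 112.8, 161.8 and 129.7 CPM, ratios of 1.44 (1.33 to 1.55) and 1.15 (1.07 to 1.24). Slc25a12 was at 36.9, 43.1 and 43.1 CPM, and had 0.327, 0.266 and 0.332 counts per count of Slc25a13. That ratio was 0.814 of WT in the Dgcr8 knockout (0.695 to 0.954) and 1.02 of WT in the Dicer knockout (0.869 to 1.19). Slc25a22, a glutamate importer, had 166, 314 and 354 counts, ratios of 1.69 (1.40 to 2.05) and 1.72 (1.43 to 2.08). Got2, the mitochondrial aspartate aminotransferase of the same shuttle, had 4202, 4045 and 2569 counts and a log2 ratio of -1.02 in the Dicer knockout.

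In the group of carnitine and amino acid carriers, Slc25a20 was higher in both knockouts and Slc25a15 was lower in the Dicer knockout. Slc25a20 brings acylcarnitines into the matrix for fatty acid oxidation. It had 329, 891 and 1357 counts, or 33.1, 80.1 and 110.2 CPM, which is 2.42 times WT in the Dgcr8 knockout (2.13 to 2.75) and 3.33 times WT in the Dicer knockout (2.95 to 3.77). The enzymes beside it did not share 1 pattern. Cpt1a, which makes acylcarnitines at the outer membrane, had 739, 1785 and 823 counts and was called higher in the Dgcr8 knockout against both other libraries. Crat, the carnitine acetyltransferase, had 80, 314 and 205 counts and was called higher in the Dgcr8 knockout against WT. Cpt2, which returns the acyl group to coenzyme A in the matrix, had 538, 363 and 408 counts.

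Slc25a15, the ornithine-citrulline exchanger, was at 67.2 CPM in WT and 61.5 CPM in the Dgcr8 knockout, but at 31.4 CPM in the Dicer knockout. It was thus 2.14-fold lower in the Dicer knockout than in WT (1.89 to 2.43), while its interval in the Dgcr8 knockout held 1. The Dgcr8 knockout stood at 1.96 times the Dicer knockout (1.73 to 2.23), just inside 2-fold. Slc25a44, a branched-chain amino acid importer, had 200, 357 and 239 counts, 1.59 times WT in the Dgcr8 knockout. Slc25a38, a glycine carrier needed for haem synthesis, was at 20.4, 17.3 and 15.3 CPM. Slc25a29, a carrier of basic amino acids, had 10, 6 and 3 counts.

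The cofactor and nucleotide carriers were the largest group, with 9 members, and 1 was called. Slc25a42, the mitochondrial coenzyme A carrier, was at 11.2 CPM in WT, 5.84 CPM without Dgcr8 and 4.14 CPM without Dicer. It was 1.91-fold lower in the Dgcr8 knockout (1.40 to 2.64), which was not called, and 2.70-fold lower in the Dicer knockout (1.92 to 3.84). Slc25a17, a coenzyme A and nucleotide carrier of peroxisomes, had 611, 354 and 479 counts, 1.93-fold lower (1.69 to 2.21) and 1.58-fold lower (1.40 to 1.79); TMM and median-ratio scaling both bring the first past 2-fold. Slc25a51, the NAD carrier, went the other way at 41.2, 52.1 and 59.4 CPM.

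Further members of that group stayed closer to WT. The pyrimidine nucleotide carriers Slc25a33 and Slc25a36 shifted against each other, with 0.292 counts of Slc25a33 per count of Slc25a36 in WT, 0.356 without Dgcr8 and 0.519 without Dicer, a change of 1.22 (0.974 to 1.52) and 1.78 (1.44 to 2.19). Slc25a32, the folate carrier, had 122, 156 and 169 counts, and its intervals held 1 in every pair; among the folate enzymes beside it, Mthfd2 was called lower in the Dicer knockout, with 1848, 1101 and 1016 counts. Slc25a26, which imports S-adenosylmethionine, had 93, 83 and 132 counts, while Lrig1, which overlaps it, had 84, 426 and 407. Slc25a16 had 186, 193 and 216 counts.

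Of the mitoferrins, which import iron for haem and iron-sulphur clusters, Slc25a37 was lower in both knockouts and Slc25a28 was not. Slc25a37, the form of developing red cells, was at 27.7 CPM in WT, 12.0 CPM without Dgcr8 and 13.2 CPM without Dicer. It was 2.32-fold lower (1.88 to 2.87) and 2.10-fold lower (1.73 to 2.57). Slc25a28, the widely expressed form, was at 22.7, 27.3 and 24.2 CPM. Slc25a37 had 1.22 counts per count of Slc25a28 in WT, 0.438 without Dgcr8 and 0.544 without Dicer, which is 2.79-fold lower (2.12 to 3.69) and 2.25-fold lower (1.72 to 2.94).

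The glutathione carriers showed the opposite shift between paralogues. Slc25a40 had 226 counts in WT, 618 without Dgcr8 and 1162 without Dicer, or 22.8, 55.6 and 94.4 CPM. It was 2.44 times WT (2.09 to 2.86) and 4.15 times WT (3.60 to 4.81), and the Dgcr8 knockout stood 1.70-fold lower than the Dicer knockout (1.54 to 1.88). Slc25a39 was at 345.0, 331.6 and 280.4 CPM, ratios of 0.961 (0.918 to 1.01) and 0.813 (0.775 to 0.852). Counts of Slc25a40 per count of Slc25a39 were 0.0660, 0.168 and 0.337, or 2.54 times (2.16 to 2.99) and 5.10 times (4.39 to 5.96) the WT value. Slc25a4 and Slc25a40 both stood farther from WT in the Dicer knockout than in the Dgcr8 knockout, in opposite directions.

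The uncoupling protein-like carriers, named for their likeness to the thermogenic uncoupling proteins, differed between the knockouts. Slc25a30 was at 8.76 CPM in WT, 7.82 CPM without Dgcr8 and 2.36 CPM without Dicer. It was 3.72-fold lower in the Dicer knockout than in WT (2.42 to 5.87), and the Dgcr8 knockout was 3.32 times the Dicer knockout (2.16 to 5.24). Slc25a27, known best from brain, had 17, 15 and 54 counts; the Dgcr8 knockout was 3.25-fold lower than the Dicer knockout (1.81 to 6.21). Its Dicer ratio to WT was 2.56 (1.46 to 4.72), a log2 ratio of 0.99 on CPM + 1, so it missed the call by little. Slc25a14 had 54, 34 and 74 counts. Ucp2, a member of the same branch under another symbol, was at 162.4, 143.8 and 115.3 CPM.

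Among the outer membrane and less characterised members, Slc25a35 was lower in both knockouts and Slc25a47 was higher in the Dicer knockout. Slc25a35, whose solute is not established, had 62, 22 and 14 counts, 3.16-fold lower (1.91 to 5.39) and 5.49-fold lower (3.04 to 10.6). It overlaps Rangrf, which had 657, 240 and 246 counts, CPM ratios of 0.326 and 0.302; if strand was not used in counting, reads of the shared stretch cannot be assigned to either gene. Slc25a47, a carrier typical of liver, had 5, 3 and 30 counts. Its ratio to WT was 4.84 in the Dicer knockout (1.86 to 16.0), and the Dgcr8 knockout was 9.04-fold lower than the Dicer knockout (2.81 to 46.3), an interval this wide because so few reads were counted. Slc25a46, an outer membrane protein of mitochondrial fusion and fission, had 328, 418 and 502 counts, and Slc25a45 had 19, 31 and 33. Slc25a43 had 5, 16 and 18 counts, and Slc25a53, which overlaps Zcchc18, had 10, 4 and 10.

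Genes listed for the import of these carriers were called only lower against WT, while those not called moved in both directions. The list includes Tomm20, Tomm22, Tomm40 and Tomm70a, subunits of the outer membrane translocase. Carriers are handed by small TIM chaperones across the intermembrane space to the TIM22 complex. Of 13 import genes entered, none was called higher and 3 were called lower in each knockout against WT, beside 8.02% and 9.7% of all genes: Timm8a1, Timm8b and Timm9 in the Dgcr8 knockout, and Timm8a1, Timm9 and Timm10b in the Dicer knockout. Timm9, a subunit of the main chaperone ring, was at 23.3, 8.54 and 9.42 CPM. Timm10, also listed, had 227, 205 and 407 counts and was not called. Its ratios to WT lay on either side of 1, at 0.806 (0.664 to 0.978) and 1.45 (1.23 to 1.71). Timm8a1 had 1119, 480 and 639 counts, Timm8b had 701, 288 and 447, and Timm10b had 200, 124 and 108. Agk, a subunit of the TIM22 complex, went the other way with 295, 636 and 615 counts, 1.93 times WT (1.67 to 2.22) and 1.68 times WT (1.46 to 1.94), and was not called. The median log2 ratio of the 13 genes was -0.47 without Dgcr8 and -0.43 without Dicer, against 0.11 and 0.10 for all genes, and their summed level was 1619, 1213 and 1207 CPM.

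Among other transporters of the mitochondrial membranes, none of 17 listed genes was called lower in either knockout against WT (8.02% and 9.7% of all genes were). Sfxn3, of the serine-carrying sideroflexins, was higher in both, with 41, 269 and 173 counts. Mtch1 and Mtch2, outer membrane relatives of the carriers, were at 100.8, 133.1 and 152.3 CPM and at 231.5, 221.0 and 175.7 CPM, with no call. Of 8 regulators of mitochondrial biogenesis, none was called in either direction against WT (22.3% and 25.7% of all genes were). Between the knockouts 1 of the 8, Ppargc1b, was higher in the Dgcr8 knockout (4.15% of all genes were). With so few genes, these counts say nothing particular to the regulators.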

How the data were processed

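Polyadenylated RNA of 3 mouse embryonic stem cell samples was made into libraries with a stranded kit, 1 per group, per the labels' protocols. The submitters' processing notes name Bowtie and mm9; the counting step, its annotation and whether strand was used were not given in the sources used here. Whole-number counts per gene, as the authors deposited them, had their unit read from the values. Empty cells were read as 0, and every row reaches 10 counts in at least 1 library. The small RNA table was not used here. Columns were matched to groups by name, and 0 columns belonged to other samples.

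Counts were divided by library totals to CPM (Python 3.11.15, pandas 2.3.3). Differences on log2(CPM + 1), a scale that shrinks those of low genes, were called at 2-fold where 1 library of the pair reached 1 CPM. Ratios of single genes are CPM ratios with exact conditional binomial 95% intervals (scipy 1.17.1). The fold rule and intervals were tested on simulated counts that held counting error only, with changes placed in well-expressed genes. That does not bear on spread between replicates, on mates counted separately or on changes in genes of few counts. Alternatives took a pseudocount of 0.1 or 5, no floor or 5 CPM, 1.5-fold, and another scaling (median-ratio factors, or TMM from edgeR 4.0.16 in R 4.3.3); halving all counts was added after seeing the data.

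The members and the gene lists were chosen with earlier results of these data known. Names, overlaps and neighbours come from RefSeq on GRCm38.p6, and the 40 members matched by accession. Values in all libraries were to be given for members at 2-fold in a pair, for the 5 highest per coding length and for their paralogues, and listed partner genes at 2-fold were named up to 4 per list; no coding lengths were used here, so levels are not ranked between genes. Cs, Acly, Cpt2, Ucp2, Mtch1, Mtch2 and further members within 2-fold were named after their values were seen. Some values of single genes are not reported here.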

Additional observations from a re-analysis of the deposited data

How the results depend on the processing

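No paired analysis was possible because each group has 1 library. No member called by library totals changed direction under the other settings, while some ratios near 1 did. The median log2 ratio of the members ran from -0.24 to -0.07 in the Dgcr8 knockout, from 0.00 to 0.12 in the Dicer knockout and from -0.03 to -0.01 between the knockouts. With a pseudocount of 5 CPM, lower calls dropped to 1 in the Dgcr8 knockout and to 1 in the Dicer knockout, higher calls in the Dicer knockout to 3, so that its balance turned from more lower to more higher calls, and calls between the knockouts to 0 higher and 0 lower. With a pseudocount of 0.1, 2 members were higher in the Dgcr8 than in the Dicer knockout, and with a floor of 5 CPM 0 were lower. At 1.5-fold, 8 members were higher and 7 lower in the Dgcr8 knockout. In the Dicer knockout 8 were higher and 8 lower, and between the knockouts 5 were higher and 5 lower. Shares of all genes under the other pseudocounts, floor and fold are not reported here, so these counts say nothing particular to the family. TMM and median-ratio scaling each left 3 higher calls in the Dicer knockout, without Slc25a1 and Slc25a10. Of the members' calls in that pair, 33.3% were then higher, against 45.5% by totals. Over all genes in the Dicer knockout, this share was 62.3% by totals, 55.6% under TMM and 55.4% under median-ratio scaling. Over all genes in the Dgcr8 knockout, median-ratio scaling moved it from 64.1% to 53.6%. TMM shifted the median of all genes by -0.11 and -0.10 in the knockouts, and median-ratio scaling by -0.13 and -0.11. Under both, the ratios of Slc25a5, Slc25a25 and Slc25a28 in the Dicer knockout, of Slc25a3 in the Dgcr8 knockout and of Slc25a12 between the knockouts crossed 1. Depth limits the members of few counts, since 1 CPM is 9.93 to 12.31 counts.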
